A study of Mus musculus with 18 samples.

Results

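The macrophages of the testis live in the interstitium and around the seminiferous tubules, and 32 genes that mark these cells or other leukocytes were followed through 18 libraries of mouse testis RNA. The genes were taken by symbol from a list that named macrophage genes, the MHC class II genes and other leukocyte genes. All 32 were found among the 20979 genes of the deposited table. The study explored what transfer of fecal microbiota (FMT) does to testes after a damaging high fat diet combined with STZ. STZ is streptozotocin, which kills insulin-producing beta cells. All libraries came from testis of ICR mice, an outbred stock, aged 10 weeks, in 6 groups of 3. The control group had no treatment named, and the AOS group received AOS, an abbreviation that the labels leave unexplained, at 10 mg/kg. The HFD_STZ group received the diet with STZ, and the HFD_STZ_AOS group the diet, STZ and AOS at 10 mg/kg. The HFD_STZ_AOS_FMT group received the diet, STZ and the FMT labelled with AOS at 10 mg/kg. The HFD_STZ_control_FMT group received the diet, STZ and the FMT labelled control. The diet with STZ is thus common to 4 groups, and no FMT was given without it. The labels do not say whether the libraries of a group are from different animals. The p-values therefore measure the spread between these samples alone, and that spread may be technical.

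Macrophages depend on signalling from the growth factor Csf1 through its receptor Csf1r, and their identity on the transcription factor PU.1, which Spi1 encodes. They engulf material, break it down in lysosomes, make the C1q chains that start the classical complement pathway, and read antibody-coated targets through Fc receptors. Some of them also load peptides on MHC class II molecules, H2-A and H2-E in the mouse, for display to CD4+ T cells. In the testis they lie among Leydig cells and near the niche of spermatogonia, in an organ known for its restrained immune responses.

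Transcription of the class II genes depends on the coactivator that Ciita encodes, which acts through factors bound to the X and Y boxes of their promoters. Of the 32 genes, 22 matched the RefSeq promoter table of build GRCm38.p6. The promoters of H2-Aa and H2-Eb1 are shown because their transcripts are set against each other in the results. Each line gives the 150 bases before the gene's start, 5′ to 3′ on the gene's strand, which for H2-Aa is the minus strand of chr17:34287824-34287973 and for H2-Eb1 the plus strand of chr17:34305717-34305866. Capitals mark matches to an X box core, GCAACT, and to a Y box core, GATTGG or its reverse complement CCAATC.
H2-Aa: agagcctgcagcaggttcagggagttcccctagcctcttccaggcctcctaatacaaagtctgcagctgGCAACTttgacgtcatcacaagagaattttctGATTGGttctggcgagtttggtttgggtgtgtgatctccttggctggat
H2-Eb1: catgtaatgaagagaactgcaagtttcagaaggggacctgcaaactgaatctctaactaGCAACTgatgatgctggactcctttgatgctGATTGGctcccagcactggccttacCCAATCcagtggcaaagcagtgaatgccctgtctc
In H2-Aa the X box letters lay 81 to 76 bases and the Y box letters 49 to 44 bases before the start. In H2-Eb1 they lay 91 to 86 and 60 to 55 bases before it, with a further Y box match on the opposite strand at 35 to 30 bases. Both promoters therefore hold the same pair of letters in the same order. The letters were then searched on both strands of longer windows, which hold the 150 bases shown, more bases upstream and some past the start. Among 27025 genes with such windows, GCAACT was found in 12.4% and GATTGG in 18.2%. Among the 22 matched members, 4 held GCAACT (H2-Aa, H2-Eb1, Ms4a7 and Cd53) and 5 held GATTGG (H2-Aa, H2-Eb1, Cd68, Cd163 and Cd53). The purine-rich core GAGGAA, of the kind PU.1 binds, was found in 13 of the 22 members (59.1%) and in 31.3% of the 27025 genes. A match is a description of the letters and not of binding.

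Values were RPKM, reads scaled by gene length and library total, so levels can be set side by side between genes. Their sums over all genes ran from 588081 to 646822, with 13022 to 13490 genes at 1 RPKM or more in a library. The depth in reads is unknown, but the steps between low values gave relative depths of 0.958 to 1.067 over the libraries, by a rule that bounds the range in advance. The tissue was that of the labels: the spermatid genes Prm1, Prm2, Tnp1 and Tnp2, which package sperm DNA, had means of 7310 to 14700 RPKM, and Insl3, a Leydig cell hormone, 3190 RPKM. In such bulk samples fewer cells of a type and less RNA per cell cannot be told apart. Among the libraries, 4 had more than 50 RPKM of Crisp1, a gene of the epididymis: control replicate 3, HFD_STZ_AOS replicate 3, HFD_STZ_AOS_FMT replicate 3 and HFD_STZ_control_FMT replicate 2. The summed level of 6 epididymis genes was 205 to 317 RPKM in these 4. Next came HFD_STZ_control_FMT replicate 3 at 47.6 RPKM and HFD_STZ_AOS_FMT replicate 2 at 25.8, and the remaining libraries lay between 3.35 and 13.2 RPKM.

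Most members were scarce. A mean of at least 1 RPKM over the 18 libraries was reached by 22 of the 32, and 18 of these were at or above 1 RPKM in every library. The rule for testing, at least 1 RPKM in at least 3 libraries, was met by 25 members (78.1%), against 66.1% of all genes. A further 7 members reached 1 RPKM in no library and so did not meet that rule: Cd163, Itgam, Ccl2, Ccr2, Ptprc, Cd53 and Cd3e. Means of at least 10 RPKM were found for 6 members, namely Aif1 at 344, Fcgr3 at 21.9, Lyz2 at 20.8, Cd74 at 16.4, C1qb at 15.5 and H2-Ab1 at 12.7 RPKM. Another 16 members had means between 1 and 10 RPKM.

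**Figure D1:**
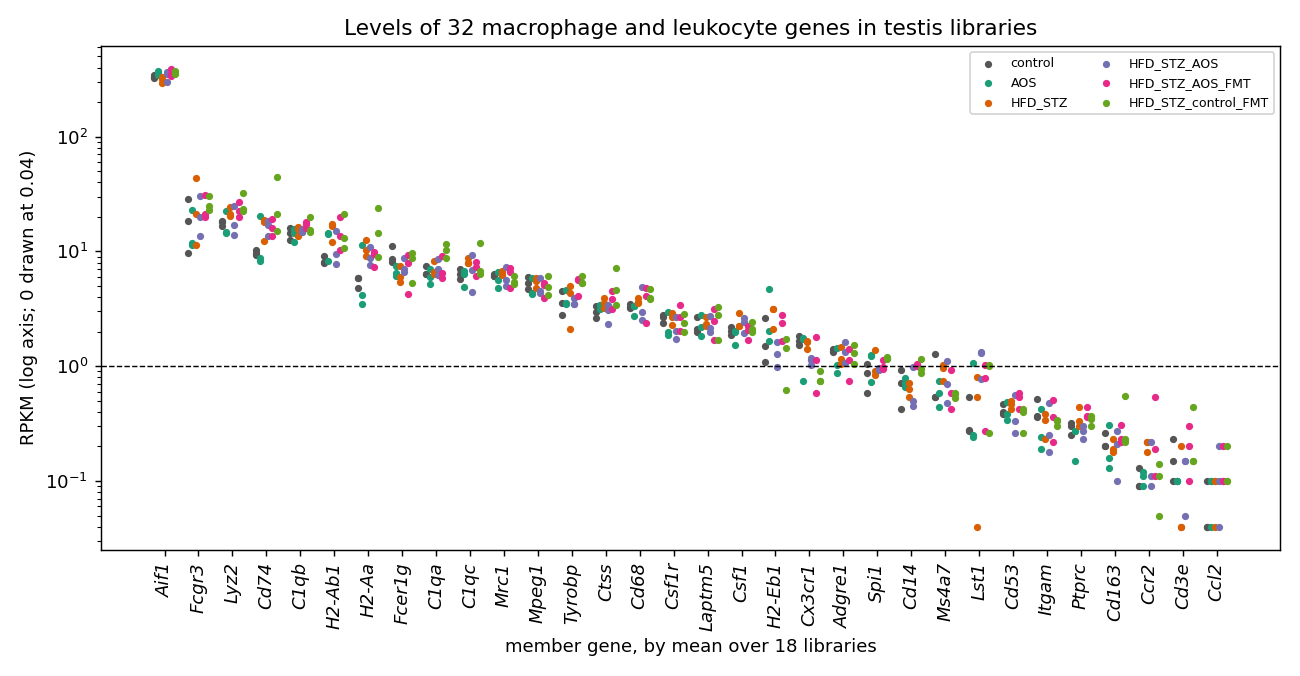
RPKM (log axis, values of 0 drawn at 0.04) of the 32 members in each of the 18 libraries, coloured by group and ordered by mean. Aif1 stands alone near 344 RPKM, 18 members keep above the dashed line at 1 RPKM in every library, and 7 lie wholly below it.

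Aif1, which encodes the calcium-binding protein IBA1 of macrophages and microglia, made up 68.6% of the summed level of all 32 members, and 58.9% to 75.2% in single libraries. It stood at 323, 329 and 343 RPKM in control, 346, 374 and 358 in AOS, and 291, 318 and 331 in HFD_STZ. It stood at 349, 369 and 297 RPKM in HFD_STZ_AOS, 390, 339 and 353 in HFD_STZ_AOS_FMT, and 373, 355 and 359 in HFD_STZ_control_FMT. AOS did not overlap with control, and neither FMT group overlapped with HFD_STZ. Aif1 was set against Csf1r and Cd68. Across the 18 libraries its Pearson correlation on the log2(RPKM + 1) scale was -0.31 with Csf1r (rho -0.27, permutation p = 0.209 for r and 0.268 for rho, adjusted 0.300 and 0.364). With Cd68 it was -0.43 (rho -0.37, permutation p = 0.0757 and 0.131, adjusted 0.154 and 0.210) and -0.35 without the 2 libraries farthest from the median of Aif1. After the group means were removed, r with Cd68 was -0.75. With Ldhc, a lactate dehydrogenase of germ cells at a mean of 2390 RPKM, Aif1 had r = 0.78 (rho 0.73, permutation p = 0.00013 and 0.00081, adjusted 0.000984 and 0.00477), again 0.78 without the 2 farthest libraries, and 0.67 within groups. With the spermatid gene Prm1 it did not pass, at r = 0.43 (rho 0.45, permutation p = 0.0715 and 0.0613, adjusted 0.152 and 0.148). That coefficient was 0.67 without the 2 farthest libraries and 0.08 within groups. Such p-values were adjusted over the 53 relations computed, and the pairs were chosen with the levels known.

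Since Aif1 dominates the sum, the summed level was also taken over the other 31 members. It was 148, 131 and 125 RPKM in control and 125, 158 and 118 in AOS. It was 195, 151 and 156 RPKM in HFD_STZ and 145, 129 and 174 in HFD_STZ_AOS. In the FMT groups it was 148, 186 and 166 RPKM for HFD_STZ_AOS_FMT and 176, 156 and 251 for HFD_STZ_control_FMT. HFD_STZ and HFD_STZ_control_FMT each lay above control without overlap, HFD_STZ_AOS did not separate from either, and HFD_STZ_control_FMT replicate 3 was the highest library. Without that library the mean of its group was 166.1 in place of 194.4 RPKM. When Fcgr3 and the class II genes were also left out, the remaining 26 members summed to means of 84.2 to 109 RPKM per group.

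Csf1, the growth factor, stood at 1.86, 2.20 and 2.01 RPKM in control and at 2.25, 2.88 and 2.25 in HFD_STZ, all above control. In the other groups Csf1 lay between 1.54 and 2.65 RPKM. Its receptor Csf1r stood at 2.82, 2.67 and 2.39 RPKM in control, 2.29, 2.89 and 2.69 in HFD_STZ, and 1.73 to 3.38 over all libraries. Every group overlapped with control in Csf1r. Spi1 lay close to the 1 RPKM line, between 0.58 and 1.38 RPKM, with 8 of 18 libraries at or above it. HFD_STZ_control_FMT was the group with all of its libraries over 1 RPKM in Spi1, at 1.18, 1.20 and 1.15, against 0.88, 1.05 and 0.58 in control.

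Among the surface and marker genes, Mrc1, the mannose receptor, had a mean of 6.03 RPKM and a range of 4.80 to 7.31. Mpeg1, a pore-forming protein of phagocytes, followed at 5.05 RPKM (3.96 to 6.16), and Cd68, a glycoprotein of the endosomes and lysosomes, at 3.59 RPKM (2.36 to 4.94). Adgre1, the surface receptor used as the classical mouse macrophage marker, had a mean of 1.24 RPKM (0.74 to 1.64). None of these 4 genes passed in any of the comparisons that were run, which do not include every pair of groups. Cd68 stood at 3.49, 3.25 and 3.20 RPKM in control, at 3.54, 3.61 and 3.92 in HFD_STZ and at 3.90, 3.87 and 4.73 in HFD_STZ_control_FMT, so that both of these groups lay above control. Mrc1 stood at 6.15, 6.11 and 6.42 RPKM in control and 5.45, 5.21 and 6.05 in HFD_STZ_control_FMT, which lay below control.

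Cx3cr1, the fractalkine receptor, marks a subset of testicular macrophages. It stood at 1.67, 1.53 and 1.85 RPKM in control, 1.42, 1.61 and 1.65 in HFD_STZ, and 1.13, 1.02 and 1.17 in HFD_STZ_AOS. In HFD_STZ_control_FMT it stood at 0.74, 0.74 and 0.90 RPKM, below every library of control and HFD_STZ. AOS spread from 0.74 to 1.77 and HFD_STZ_AOS_FMT from 0.58 to 1.78 RPKM, each overlapping with HFD_STZ, HFD_STZ_AOS and HFD_STZ_control_FMT. HFD_STZ_AOS overlapped with neither HFD_STZ nor HFD_STZ_control_FMT. Cd14, the coreceptor for lipopolysaccharide, stood at 0.71, 0.63 and 0.54 RPKM in HFD_STZ. It stood at 1.04, 1.01 and 1.00 RPKM in HFD_STZ_AOS_FMT and at 0.95, 1.15 and 0.87 in HFD_STZ_control_FMT, both without overlap with HFD_STZ. Its control libraries, at 0.92, 0.42 and 0.71 RPKM, reached into the range of HFD_STZ_control_FMT. Ms4a7, a tetraspan membrane protein of macrophages, reached 1 RPKM in 3 libraries only, with a range of 0.42 to 1.29. Cd163, the scavenger receptor for haemoglobin, lay between 0.10 and 0.55 RPKM, and Itgam, the integrin chain CD11b of myeloid cells, between 0.18 and 0.52.

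The 3 chains of C1q are encoded side by side on chromosome 4 and are assembled together. C1qb had a mean of 15.5 RPKM, C1qa 7.44 and C1qc 7.17. C1qa stood at 6.41, 6.34 and 7.52 RPKM in control, 6.33, 8.28 and 6.63 in HFD_STZ, and 6.46, 9.08 and 5.91 in HFD_STZ_AOS_FMT. In HFD_STZ_control_FMT it stood at 10.3, 8.75 and 11.7 RPKM, above every control and HFD_STZ library. C1qc stood at 6.37, 7.04 and 5.78 RPKM in control and 7.97, 8.71 and 7.94 in HFD_STZ, which did not overlap. C1qb stood at 16.1, 12.6 and 14.4 RPKM in control, and at 15.8, 13.7 and 16.2 in HFD_STZ, with overlap.

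Of the lysosomal and degradative genes, Lyz2, the lysozyme of macrophages and other myeloid cells, stood at 16.8, 18.6 and 18.2 RPKM in control and at 24.3, 20.2 and 21.0 in HFD_STZ. It stood at 19.8, 27.0 and 22.7 RPKM in HFD_STZ_AOS_FMT and at 23.3, 22.6 and 32.5 in HFD_STZ_control_FMT. All 9 of these libraries lay above control, and the share of all genes with that pattern was not computed. HFD_STZ_AOS, at 14, 17 and 24.7, overlapped with control. Ctss, the cathepsin that trims the invariant chain, had a mean of 3.62 RPKM and reached 7.22 in HFD_STZ_control_FMT replicate 3. Laptm5, a lysosomal membrane protein of blood cells, lay between 1.69 and 3.31 RPKM with overlapping groups.

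Fcgr3, the low-affinity Fc receptor for IgG, varied widely between libraries of the same group. It stood at 28.4, 18.5 and 9.64 RPKM in control, 43.9, 21.2 and 11.4 in HFD_STZ, and 22.8, 25 and 30.4 in HFD_STZ_control_FMT. Control and HFD_STZ each spanned a wide range, and all groups overlapped. Its variation was shared with Fcgr2b, the inhibitory Fc receptor gene that lies near it on chromosome 1 and is alike in sequence (r = 0.89, rho 0.86, permutation p = 1e-05 and 2e-05, adjusted 0.000132 and 0.000212, 0.85 without the 2 farthest libraries, 0.96 within groups). How reads were divided between the 2 genes is not given in the sources used here. With adaptors of its receptor family the correlation of Fcgr3 did not pass: r was 0.04 with Fcer1g (rho -0.03, permutation p = 0.886 and 0.907, adjusted 0.925 for both) and 0.23 with Tyrobp (rho 0.33, permutation p = 0.364 and 0.177, adjusted 0.459 and 0.276).

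Fcer1g, the common gamma chain of Fc receptors, stood at 11.1, 8.6 and 8.13 RPKM in control, 6.12, 6.46 and 7.43 in AOS, and 7.48, 6.04 and 5.46 in HFD_STZ. Both AOS and HFD_STZ lay below control without overlap. Tyrobp, the adaptor DAP12, stood at 3.57, 2.79 and 4.52 RPKM in control and at 5.32, 6.06 and 5.36 in HFD_STZ_control_FMT, which lay above control and above HFD_STZ (5.03, 2.10 and 4.33). Lst1, a small leukocyte protein encoded in the MHC region, lay between 0 and 1.32 RPKM, and its 1 value of 0 was HFD_STZ replicate 2.

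The class II genes gave the largest member differences in HFD_STZ against control. Cd74, the invariant chain that guides class II molecules to endosomes, stood at 9.65, 10.2 and 9.30 RPKM in control and at 17.9, 12.3 and 18.9 in HFD_STZ. It stood at 18.4, 13.7 and 17.1 RPKM in HFD_STZ_AOS, 13.6, 19.2 and 16.0 in HFD_STZ_AOS_FMT, and 21.1, 15.1 and 44.4 in HFD_STZ_control_FMT. All 12 libraries given the diet with STZ lay above the 3 of control, and the share of all genes with that pattern was not computed. In AOS it stood at 8.33, 20.4 and 8.69 RPKM, with replicate 2 among the libraries given the diet with STZ and the other two below control.

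H2-Aa, the alpha chain of H2-A, stood at 5.81, 4.83 and 5.81 RPKM in control, 4.18, 11.3 and 3.51 in AOS, and 12.6, 9.11 and 10.3 in HFD_STZ. It stood at 11, 7.67 and 8.83 RPKM in HFD_STZ_AOS, 7.31, 9.43 and 9.98 in HFD_STZ_AOS_FMT, and 14.5, 8.88 and 23.9 in HFD_STZ_control_FMT. Again all 12 libraries given the diet with STZ lay above control, a pattern whose share of all genes was not computed. AOS replicate 2 stood apart from its group. H2-Ab1, the beta chain of H2-A, stood at 8.09, 9.12 and 7.86 RPKM in control, 14.2, 14.4 and 8.30 in AOS, and 16.7, 12 and 17.3 in HFD_STZ. It stood at 15.1, 7.83 and 9.50 RPKM in HFD_STZ_AOS, 13.5, 19.9 and 10.3 in HFD_STZ_AOS_FMT, and 13.1, 10.8 and 21.1 in HFD_STZ_control_FMT. HFD_STZ and both FMT groups lay above control in H2-Ab1, and HFD_STZ_AOS did not.

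**Figure D2:**
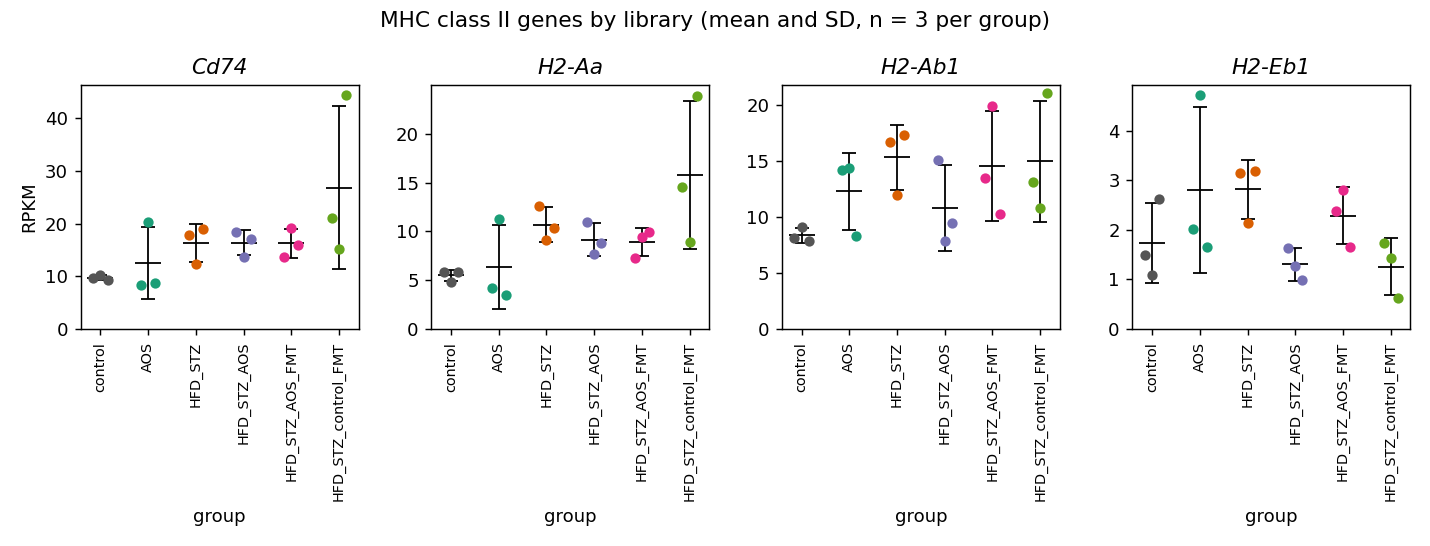
RPKM (linear axes from 0) of Cd74, H2-Aa, H2-Ab1 and H2-Eb1 in the 6 groups, with 1 point per library and the mean and SD of 3 libraries as bars. Control lies near 9.72 RPKM for Cd74 and 5.48 for H2-Aa with little spread, HFD_STZ_control_FMT replicate 3 is the highest point for both, and H2-Eb1 has another order of groups.

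H2-Eb1, the beta chain of H2-E, had a mean of 2.03 RPKM and another order. It stood at 1.5, 1.08 and 2.63 RPKM in control, 2.01, 4.72 and 1.66 in AOS, and 3.15, 2.13 and 3.18 in HFD_STZ. It stood at 1.64, 1.28 and 0.99 RPKM in HFD_STZ_AOS, 2.39, 2.80 and 1.66 in HFD_STZ_AOS_FMT, and 1.73, 1.43 and 0.62 in HFD_STZ_control_FMT. HFD_STZ_AOS and HFD_STZ_control_FMT lay below HFD_STZ without overlap. HFD_STZ_control_FMT replicate 3, the highest of all libraries in Cd74 and H2-Aa, was the lowest in H2-Eb1.

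Across the 18 libraries H2-Aa and Cd74 moved together, with r = 0.95 (rho 0.92, permutation p = 1e-05 for both, the smallest that 100000 resamples can give, adjusted 0.000132), 0.93 without the 2 farthest libraries and 0.93 within groups. H2-Aa with H2-Ab1 gave r = 0.66 (rho 0.68, permutation p = 0.00268 and 0.00263, adjusted 0.0118 and 0.0116, 0.49 without the 2 farthest). H2-Eb1 gave r = -0.03 with H2-Aa (rho 0.19, permutation p = 0.908 and 0.449, adjusted 0.925 and 0.541) and -0.10 with Cd74 (rho 0.11, permutation p = 0.694 and 0.663, adjusted 0.766 and 0.747). Without the 2 farthest libraries these were 0.26 and 0.20. The difference between these coefficients was not tested.

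H2-Eb1 varied with some other genes of the same stretch of chromosome 17, and not with all of those tried. With H2-Ob, the beta chain of the class II modulator H2-O, r was 0.90 (rho 0.92, permutation p = 1e-05 for both, adjusted 0.000132) and 0.91 without the 2 farthest libraries. With Tap2, a subunit of the peptide transporter of MHC class I, r was 0.88 (rho 0.90, permutation p = 2e-05 and 1e-05, adjusted 0.000212 and 0.000132) and 0.86 without the 2 farthest. With Tap1, the partner subunit, r was 0.79 (rho 0.89, permutation p = 8e-05 and 1e-05, adjusted 0.000707 and 0.000132, 0.81 without the 2 farthest). With Psmb9, an immunoproteasome subunit, r was 0.73 (rho 0.81, permutation p = 0.00048 and 7e-05, adjusted 0.00254 and 0.00053, 0.74 without the 2 farthest). Within groups these 4 coefficients were 0.84, 0.80, 0.58 and 0.56. H2-DMb1, a chain of the peptide exchanger H2-DM, gave r = 0.60 (rho 0.70, permutation p = 0.00812 and 0.00147, adjusted 0.0292 and 0.00779, 0.83 without the 2 farthest), but 0.37 within groups. Psmb8, a further immunoproteasome subunit, did not pass at r = 0.50 (rho 0.52, permutation p = 0.0335 and 0.0284, adjusted 0.089 and 0.0837, 0.65 without the 2 farthest). Neither did H2-DMa, the partner of H2-DMb1, at 0.29 (rho 0.31, permutation p = 0.249 and 0.217, adjusted 0.338 and 0.319, 0.41 without the 2 farthest), nor H2-Ab1 at 0.29 (rho 0.38, permutation p = 0.246 and 0.116, adjusted 0.338 and 0.199, 0.65 without the 2 farthest). Tap2 stood at 3.46, 2.79 and 4.17 RPKM in HFD_STZ and at 0.90, 1.36 and 1.25 in HFD_STZ_AOS, the same order as H2-Eb1. On GRCm38, Psmb9 (chr17:34181987-34187764), Tap1 (chr17:34187553-34197225), Tap2 (chr17:34203527-34216321) and H2-Ob (chr17:34238903-34254414) lie on 1 side of H2-Ab1 (chr17:34257689-34269419) and H2-Aa (chr17:34282744-34287823), and H2-Eb1 (chr17:34305867-34316674) on the other.

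**Figure D3:**
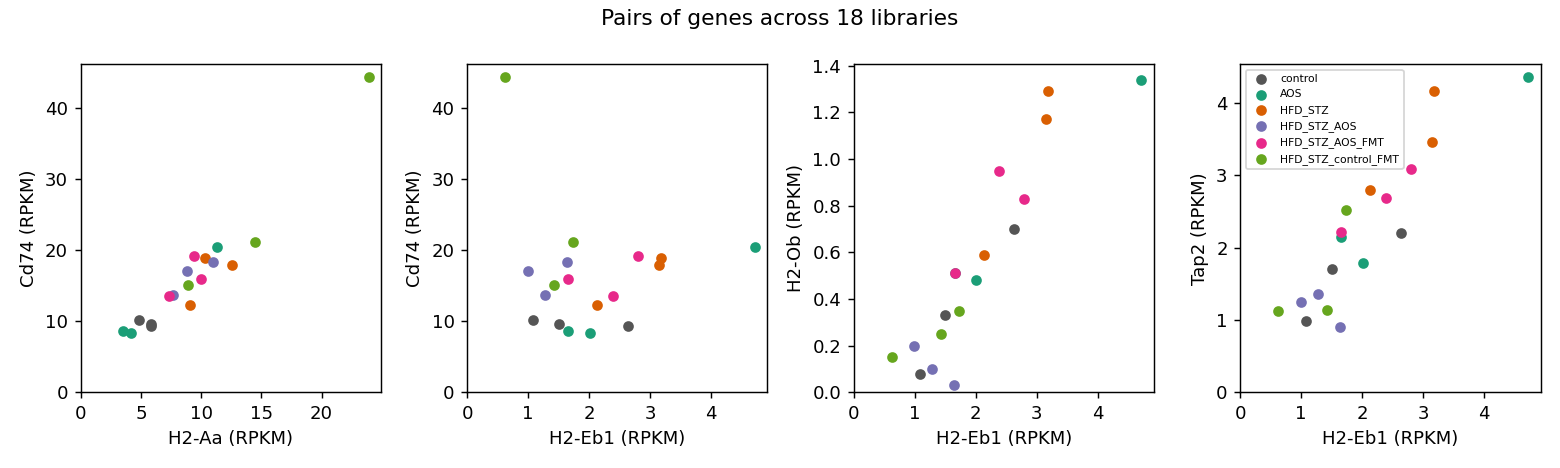
RPKM of 2 genes against each other in 18 libraries, coloured by group, for Cd74 against H2-Aa, Cd74 against H2-Eb1, H2-Ob against H2-Eb1 and Tap2 against H2-Eb1. The panels of Cd74 with H2-Aa and of H2-Ob and Tap2 with H2-Eb1 follow a line (r = 0.95, 0.90 and 0.88 on the log2 scale), and that of Cd74 with H2-Eb1 does not (r = -0.10).

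The chemokine Ccl2, which draws monocytes, was listed at 0 in 5 libraries and never above 0.20 RPKM, and its receptor Ccr2, a mark of recent monocytes, lay between 0.05 and 0.54 RPKM. Ptprc, the CD45 phosphatase common to leukocytes, lay between 0.15 and 0.44 RPKM, and Cd53, a leukocyte tetraspanin, between 0.26 and 0.59. Cd3e, a chain of the T cell receptor complex, was listed at 0 in 2 libraries and reached 0.44 RPKM at most. None of these 5 genes met the rule for testing, and none was called in the fit without the filter on low values. Values at such levels rest on few reads.

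Differences were tested with limma over the 13874 genes that met the rule, on the log2(RPKM + 1) scale, which understates the change of low genes. limma called 0 of the 25 tested members at an adjusted p of 0.05 in each of 12 comparisons, so no member rose or fell by this test. What follows gives, for each comparison, the percentage of all genes called, the members with an unadjusted p under 0.05, and the members with the smallest p, none of which passed. Comparisons share libraries of control or of HFD_STZ, so their values are not independent of each other.

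HFD_STZ against control asks what the diet with STZ did. limma called 0% of all genes, and 3 members and 8.3% of all genes had an unadjusted p under 0.05. The difference in H2-Ab1 was 0.79 ± 0.27 (SE) on the log2 scale with an adjusted p of 0.440, that in H2-Aa was 0.84 ± 0.32 with 0.487, and that in Fcer1g was -0.48 ± 0.22 with 0.583. Of the tested members 19 were higher and 6 lower, with a median of 0.0833, while 59.5% of all genes were higher with a median of 0.0227. The groups did not overlap for 7 higher members (Csf1, Cd68, C1qc, Lyz2, Cd74, H2-Aa and H2-Ab1) and 1 lower member (Fcer1g), against 11.7% and 4.53% of all genes. All 4 class II genes were higher, with a median of 0.73. Of 4 red cell genes tested in the same comparison limma called 0, with an unadjusted p under 0.05 for 1, and all 4 were higher. Hba-a1, a globin, stood at 145 ± 32 RPKM in HFD_STZ and 99.0 ± 12 in control (SD, n = 3 each), and the summed level of 5 red cell genes ranged from 152 to 211 RPKM against 99.8 to 141. Their part in the member differences was not tested.

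The factorial part of the design sets the 6 libraries of HFD_STZ and HFD_STZ_AOS against the 6 of control and AOS. For this main effect of HFD_STZ limma called 396 genes, 2.85% of all genes, and 0 members. An unadjusted p under 0.05 was found for 3 members and 18.8% of all genes. H2-Aa differed by 0.73 ± 0.23 (SE) with an adjusted p of 0.0962, Csf1 by 0.21 ± 0.08 with 0.148, and Cd74 by 0.58 ± 0.23 with 0.187. Without AOS replicate 2 the difference in H2-Aa was 0.95 with an adjusted p of 0.0219, and H2-Aa was then called. That library had the highest H2-Aa of its group, at 11.3 RPKM against 4.18 and 3.51. The share of all genes called without it was not recorded. With all libraries, 18 members were higher and 7 lower, with a median of 0.0515 against 0.0324 for all genes, of which 64.7% were higher. Of 4 red cell genes tested limma called 1 here, with an unadjusted p under 0.05 for 3, and all 4 were higher with a median of 0.87. Of 7 Sertoli cell genes tested it called 1, with an unadjusted p under 0.05 for 2, and 6 were higher. The part of either cell type in the differences of this comparison was not tested.

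AOS against control asks what AOS did without the diet. limma called 0% of all genes and 0 members, and 0 members had an unadjusted p under 0.05, against 13.9% of all genes. Fcer1g differed by -0.41 ± 0.22 (SE, adjusted p 0.417), H2-Ab1 by 0.48 ± 0.27 (0.453) and Aif1 by 0.12 ± 0.07 (0.481). Groups did not overlap for 1 higher member, Aif1, and 1 lower member, Fcer1g, against 7.76% and 14.8% of all genes. H2-Ab1 rested on AOS replicates 1 and 2, and without replicate 3 its difference was 0.72.

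For the main effect of AOS, 6 libraries against 6, limma called 325 genes, 2.34% of all genes, and 0 members, with an unadjusted p under 0.05 for 1 member and 20.7% of all genes. Aif1 differed by 0.11 ± 0.05 (SE) with an adjusted p of 0.218, Lst1 by 0.35 ± 0.18 with 0.279, and Cx3cr1 by -0.23 ± 0.13 with 0.308. Lst1 differed by 0.23 without AOS replicate 2 and also without HFD_STZ replicate 2, Cx3cr1 by -0.12 without AOS replicate 1, and Aif1 by 0.17 without the libraries over 50 RPKM of Crisp1. Here 6 members were higher and 19 lower, with a median of -0.0677 against -0.0186 for all genes, of which 43% were higher. Germ cell genes differed in the same comparison, as limma called Tnp2 (0.29 ± 0.06, adjusted p 0.0277) and Tnp1 (0.25 ± 0.06, 0.0409), which rose, and Sycp1, a meiotic gene (-0.25 ± 0.05, 0.0275), which fell. Their part in the values of Aif1 was not tested.

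HFD_STZ_AOS against HFD_STZ asks what AOS did on top of the diet with STZ. limma called 0% of all genes and 0 members, with an unadjusted p under 0.05 for 2 members and 12.5% of all genes. H2-Eb1 differed by -0.73 ± 0.27 (SE, adjusted p 0.298), Lst1 by 0.59 ± 0.26 (0.354) and H2-Ab1 by -0.50 ± 0.27 (0.466). Lst1 rested on the value of 0 in HFD_STZ replicate 2, without which its difference was 0.35, and H2-Ab1 differed by -0.31 without HFD_STZ_AOS replicate 2. Members that did not overlap numbered 0 higher and 2 lower (Cx3cr1 and H2-Eb1), against 7.37% and 9.8% of all genes. Of the members 8 were higher and 17 lower, with a median of -0.0999 against -0.007 for all genes, of which 47.7% were higher.

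The interaction of AOS with HFD_STZ asks whether AOS acted differently with and without the diet. limma called 0% of all genes and 0 members, and 2 members had an unadjusted p under 0.05, against 4.61% of all genes. H2-Eb1 gave -1.15 ± 0.39 (SE), H2-Ab1 -0.97 ± 0.39 and Fcer1g 0.62 ± 0.31, each with an adjusted p of 0.999.

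The FMT groups were compared with HFD_STZ, with each other and, added after the levels had been seen, with control. In HFD_STZ_AOS_FMT against HFD_STZ limma called 0.0144% of all genes and 0 members, with an unadjusted p under 0.05 for 2 members and 14.5% of all genes. Aif1 differed by 0.20 ± 0.07 (SE, adjusted p 0.242), Cd14 by 0.31 ± 0.12 (0.281) and Tyrobp by 0.40 ± 0.20 (0.368), the last at 0.11 without HFD_STZ replicate 2. Groups did not overlap for 2 higher members, Cd14 and Aif1, and 0 lower ones, against 7.82% and 11.6% of all genes. In HFD_STZ_control_FMT against HFD_STZ limma called 0.00721% of all genes and 0 members, with an unadjusted p under 0.05 for 7 members and 16.2% of all genes. C1qa differed by 0.48 ± 0.15 (SE, adjusted p 0.163), Aif1 by 0.21 ± 0.07 (0.182) and Cx3cr1 by -0.51 ± 0.18 (0.192). Groups did not overlap for 4 higher members (Cd14, Aif1, C1qa and Tyrobp) and 4 lower ones (Mrc1, Cx3cr1, Ms4a7 and H2-Eb1), against 8.0% and 16.0% of all genes.

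In HFD_STZ_AOS_FMT against HFD_STZ_control_FMT, which asks whether the 2 kinds of FMT differed, limma called 0.0216% of all genes and 0 members, with an unadjusted p under 0.05 for 1 member and 4.58% of all genes. C1qa differed by -0.48 ± 0.15 (SE), H2-Aa by -0.67 ± 0.32 and H2-Eb1 by 0.56 ± 0.27, each with an adjusted p of 0.999. Without HFD_STZ_control_FMT replicate 3, H2-Aa differed by -0.33 and H2-Eb1 by 0.33, and without the libraries over 50 RPKM of Crisp1 H2-Aa differed by -1.08. Groups did not overlap for 0 higher members and 1 lower member, Spi1, against 5.15% and 3.27% of all genes. C1qa stood at 6.46, 9.08 and 5.91 against 10.3, 8.75 and 11.7 RPKM, which overlapped.

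The largest member differences came from HFD_STZ_control_FMT against control, where limma called 0.00721% of all genes and 0 members, with an unadjusted p under 0.05 for 8 members and 14.1% of all genes. H2-Aa differed by 1.27 ± 0.32 (SE, adjusted p 0.118), Cd74 by 1.24 ± 0.33 (0.122) and C1qa by 0.53 ± 0.15 (0.143). Without HFD_STZ_control_FMT replicate 3, H2-Aa differed by 0.94 and Cd74 by 0.82. Groups did not overlap for 10 higher members (Spi1, Cd68, Aif1, C1qa, Lyz2, Ctss, Tyrobp, Cd74, H2-Aa and H2-Ab1) and 2 lower ones (Mrc1 and Cx3cr1), against 9.92% and 11.3% of all genes. Members had a median of 0.25, with 17 higher and 8 lower, against a median of -0.0051 for all genes.

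In HFD_STZ_AOS_FMT against control limma called 0.0144% of all genes and 0 members, with an unadjusted p under 0.05 for 3 members and 13.5% of all genes. H2-Ab1 differed by 0.69 ± 0.27 (SE, adjusted p 0.289), C1qb by 0.25 ± 0.11 (0.349) and Cd14 by 0.27 ± 0.12 (0.354). H2-Ab1 differed by 0.46 without HFD_STZ_AOS_FMT replicate 2, and without control replicate 2 C1qb differed by 0.17 and Cd14 by 0.15. Groups did not overlap for 6 higher members (Cd14, C1qb, Lyz2, Cd74, H2-Aa and H2-Ab1) and 0 lower ones, against 10.2% and 7.8% of all genes. Over all 6 groups, limma's F test called 6 genes, 0.0432% of all genes, and 0 members, with an unadjusted p under 0.05 for 7 members and 21.1% of all genes. The smallest adjusted p was 0.126, for both H2-Aa and C1qa, followed by 0.177 for Cd74.

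**Figure D4:**
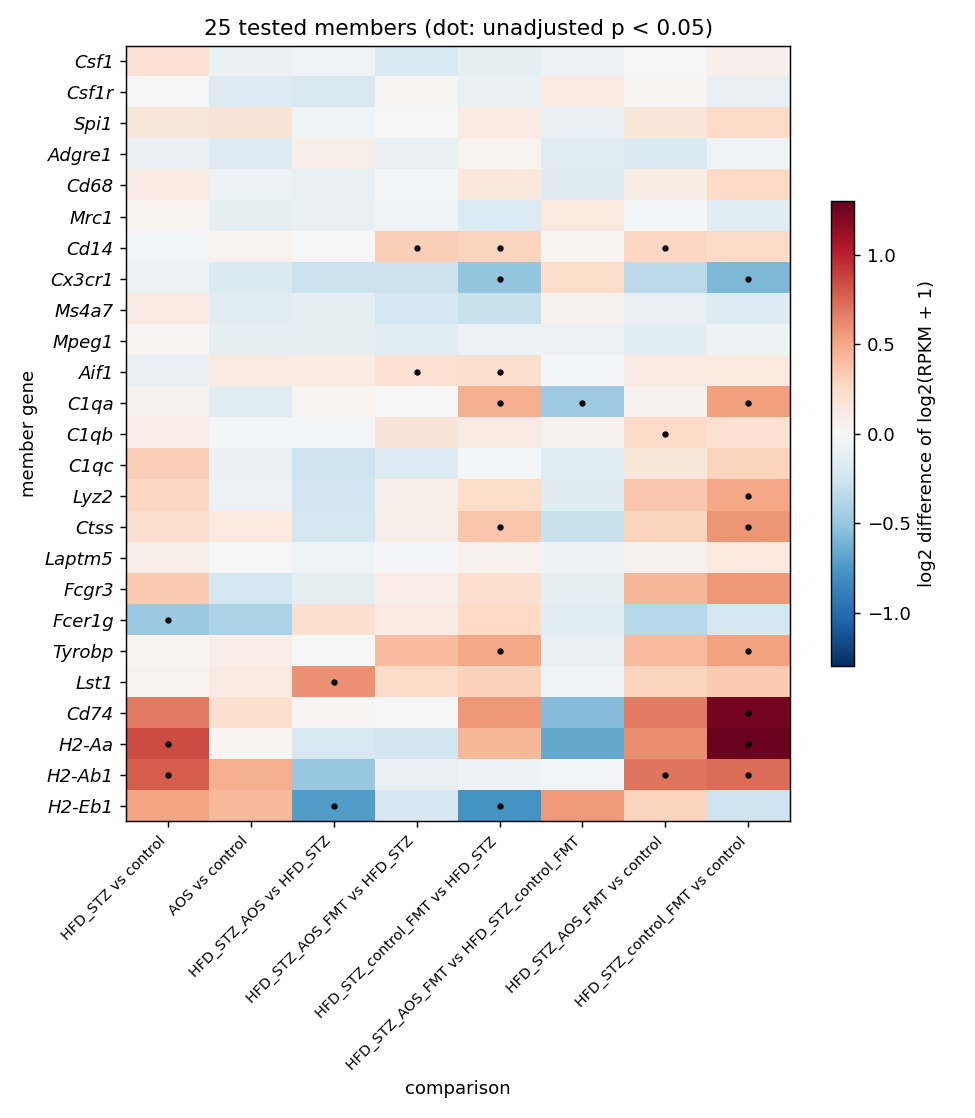
Difference of log2(RPKM + 1) (colour, red higher and blue lower in the group named first) of the 25 tested members in 8 comparisons of 2 groups, with a dot where the unadjusted p was under 0.05. The darkest cells are H2-Aa and Cd74 in HFD_STZ_control_FMT against control, at 1.27 and 1.24, and no cell passed the adjusted threshold.

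Fat cell genes stood high in the FMT groups and in 1 library without FMT, while limma called 0 of the 5 tested adipocyte genes in any comparison. Against HFD_STZ, 4 of the 5 had an unadjusted p under 0.05 in each FMT group. The summed level of 6 adipocyte genes was 14.5 to 36.5 RPKM in the 9 libraries of control, AOS and HFD_STZ, 52.3, 68.2 and 146 in HFD_STZ_AOS_FMT, and 53.0, 43.0 and 150 in HFD_STZ_control_FMT. In HFD_STZ_AOS it was 18.8, 19.2 and 119 RPKM. The sum was carried by Fabp4, with a range of 2.47 to 105 RPKM, and Cfd, an adipokine, with 0.74 to 30.9, while Adipoq, adiponectin, ranged from 9.42 to 16.5. Fabp4, a fatty acid carrier of fat cells and also of macrophages, reached 105 RPKM in HFD_STZ_control_FMT replicate 3, the library with the highest Cd74 and H2-Aa. Of the 6 genes, Lep stayed at 1.3 RPKM or less. The part of fat tissue in the member values of these groups was not tested.

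Other leukocytes were checked through their own markers. The neutrophil genes S100a8, S100a9, Ngp and Camp were never above 0.30 RPKM, and Ltf, the remaining 1 of 5, reached 6.98 RPKM where Crisp1 was high. T and NK cell genes were led by Cd3d at a mean of 4.16 RPKM, while Cd4 was at 0.80 RPKM or less and Cd8a at 0.10 or less. The 8 genes of that list summed to 6.46 to 10.3 RPKM per library, and 3 of them met the rule for testing. The mast cell gene Cpa3 had a mean of 1.03 RPKM, and the other 4 mast cell genes were at 0.62 RPKM or less.

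Whether the members vary as 1 population was described by their correlation with Csf1r across the 18 libraries, over the 24 other tested members. Mrc1 gave r = 0.78 (rho 0.69, permutation p = 0.00016 and 0.0022, adjusted 0.00106 and 0.0106, 0.70 without the 2 libraries farthest in Csf1r). Laptm5 gave r = 0.77 (rho 0.75, permutation p = 0.00023 and 0.00065, adjusted 0.00135 and 0.00431, 0.73 without the 2 farthest). C1qc gave 0.67, Lyz2 0.64, Adgre1 0.61, Ms4a7 0.58 and Cd68 0.56, with adjusted permutation p of 0.0094, 0.0173, 0.0292, 0.0352 and 0.0433 in that order. Their rho was 0.67, 0.56, 0.67, 0.63 and 0.46, with adjusted permutation p of 0.0122, 0.055, 0.0122, 0.0201 and 0.148, so that Lyz2 and Cd68 did not pass by rank. Without the 2 farthest libraries r was 0.58, 0.49, 0.73, 0.52 and 0.36. These were the 7 of 24 members that passed on r, and the share of all genes that would pass against Csf1r was not computed. The other C1q chains did not pass, with r = 0.38 for C1qa (rho 0.42, adjusted permutation p 0.211 and 0.17) and 0.35 for C1qb (rho 0.42, adjusted 0.255 and 0.172). After the group means were removed, r was 0.76 for C1qc, 0.72 for C1qa and 0.37 for C1qb.

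The other members did not pass against Csf1r. Mpeg1 and Cx3cr1 both gave r = 0.49 (rho 0.44 and 0.46, adjusted permutation p 0.101 and 0.102 for r). Csf1 gave 0.42 (rho 0.37, adjusted permutation p 0.164 for r). Within groups these 3 genes gave 0.50, 0.57 and 0.62. Fcgr3 gave r = 0.11, Spi1 0.03, Fcer1g -0.02 and Tyrobp -0.03, with adjusted permutation p of 0.746, 0.925, 0.941 and 0.925 (rho 0.10, -0.04, 0.01 and -0.04). Without the 2 farthest libraries these were 0.14, 0.02, 0.02 and -0.31. The class II genes gave 0.33 for Cd74, 0.32 for H2-Aa, 0.26 for H2-Ab1 and 0.16 for H2-Eb1, with adjusted permutation p of 0.266, 0.279, 0.383 and 0.638. After the group means were removed, Cd74 and H2-Aa gave 0.63 and 0.58. Among genes of other cell types tried, Wt1, a transcription factor of Sertoli cells, passed on r and not by rank. It gave r = 0.59 (rho 0.53, permutation p = 0.0103 and 0.0265, adjusted 0.0343 and 0.0826, 0.39 without the 2 farthest). The others did not pass. Of these, Cdh5 and Pecam1 of endothelium gave r = 0.50 and 0.44, Cyp17a1 of Leydig cells 0.47 and Acta2 of peritubular myoid cells 0.42. Their adjusted permutation p were 0.089, 0.152, 0.117 and 0.158 in that order (rho 0.38, 0.41, 0.44 and 0.46). Within groups, r with Csf1r was 0.57 for Wt1, 0.50 for Cdh5, 0.57 for Pecam1, 0.33 for Cyp17a1 and 0.54 for Acta2. It was 0.48 for Fabp4, 0.18 for Crisp1, -0.10 for Prm1 and -0.20 for Ldhc. What the shared variation holds beyond macrophages, such as the share of somatic RNA, was not tested.

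**Figure D5:**
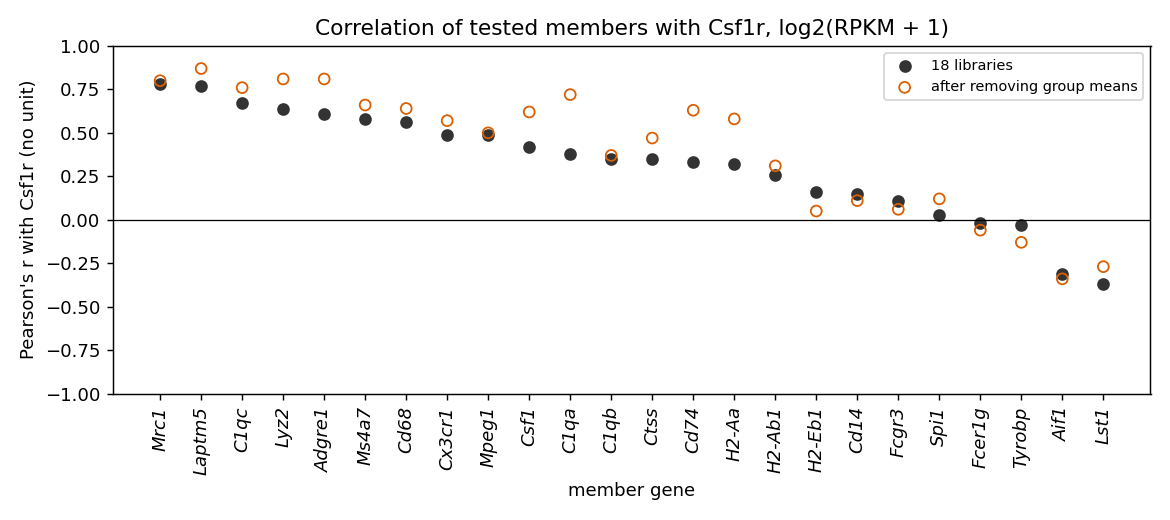
Pearson's r of each of the 24 other tested members with Csf1r on the log2(RPKM + 1) scale over 18 libraries (filled) and after removing group means (open). Mrc1 and Laptm5 are highest at 0.78 and 0.77, Fcer1g, Tyrobp and Spi1 lie near 0, and Aif1 is at -0.31.

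The members were then set beside the rest of their pathways. Of 32 other macrophage genes 18 were tested, and limma called 1, in the main effect of HFD_STZ: Lgmn, a lysosomal protease, which rose by 0.27 ± 0.07 (SE, adjusted p 0.0407) with 14 of the 18 higher. In that comparison 2.85% of all genes were called and 64.7% were higher. Lgmn stood at 21.7 ± 0.058 RPKM in control, 22.2 ± 0.24 in AOS, 26.6 ± 1.3 in HFD_STZ and 26.9 ± 4.4 in HFD_STZ_AOS (SD, n = 3 each). Axl, a receptor for the engulfment of dying cells, and Grn, progranulin, had means of 11.9 and 9.62 RPKM, and neither was called. Of 10 genes of the colony stimulating factor pathway 4 were tested and 0 called in any of the 12 comparisons, with unadjusted p under 0.05 for at most 3. The most abundant were Csf2ra, a receptor chain, at 2.81 RPKM, and the transcription factors Cebpb at 1.27 and Cebpa at 1.20 RPKM. Il34, the other ligand of Csf1r, stayed at 0.55 RPKM or less.

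Of 17 class II pathway genes 11 were tested, and limma called 1, Ifi30, a thiol reductase of antigen processing, which rose by 0.39 ± 0.10 (SE, adjusted p 0.0454) in the main effect of HFD_STZ, where 8 of the 11 were higher. Over all genes 2.85% were called and 64.7% were higher there. Ctsl, a cathepsin, was the most abundant at 140 RPKM, followed by the Y box factor subunits Nfyc at 13.8 and Nfya at 7.61 RPKM. Ciita, the coactivator, was between 0 and 0.12 RPKM, with its highest value in HFD_STZ_control_FMT replicate 3. The costimulatory genes Cd86, Cd40 and Cd80 reached 0.66, 0.38 and 0.21 RPKM at most.

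Of 18 chemokines and receptors 6 were tested and 2 called in the main effect of HFD_STZ, against 2.85% of all genes. Cxcr4, the receptor of Cxcl12, rose by 0.34 ± 0.08 (SE, adjusted p 0.0343), and Ccl5, a chemokine of T cells and macrophages, fell by 0.70 ± 0.17 (adjusted p 0.0407). Ccl5 stood at 2.41 ± 0.22 RPKM in control, 2.64 ± 0.52 in AOS, 1.43 ± 0.78 in HFD_STZ and 0.993 ± 0.36 in HFD_STZ_AOS (SD, n = 3 each). The most abundant of the list were Cxcl12 at 7.34, Ccl8 at 4.78 and Cxcr4 at 2.16 RPKM. Ccl8, a chemokine of tissue macrophages, ranged from 1.08 to 18.7 RPKM and followed H2-Aa (r = 0.87, rho 0.84, permutation p = 1e-05 and 3e-05, adjusted 0.000132 and 0.000265, 0.77 without the 2 farthest libraries).

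Of 16 complement genes 12 were tested and 0 called by limma in any comparison, with an unadjusted p under 0.05 for 6 in the main effect of HFD_STZ, in which 12 of 12 were higher, against 18.8% and 64.7% of all genes. They were led by Clu, clusterin, at 507 RPKM, Cd55, which limits complement on cells, at 33.8, and Serping1, the C1 inhibitor, at 25 RPKM. Of 16 cytokine and inflammatory enzyme genes 4 were tested and 0 called by limma, with an unadjusted p under 0.05 for 0 in any comparison. They were led by Tgfb1 at 5.89, Casp1 at 1.84 and Il18 at 1.40 RPKM, while Tnf, Il6, Il10 and Nos2 were at 0.09, 0.07, 0.06 and 0.29 RPKM or less. Of 11 Toll-like receptor genes 4 were tested and 0 called by limma, with an unadjusted p under 0.05 for at most 1 in a comparison. They were led by the adaptor Myd88 at 7.16, the kinase Irak4 at 2.33 and Ly96, the partner of Tlr4, at 1.64 RPKM, while Tlr4 itself stayed at 0.17 RPKM or less.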

How the data were processed

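Testis RNA of 18 samples, 3 in each of 6 groups given by the labels, was sequenced. Per the labels' protocols RNA was extracted with Trizol from frozen testis and libraries followed standard Illumina methods, and the submitters' processing notes name Bowtie 0.12.2 and mm10. A single table was deposited by the authors, with RPKM for each gene symbol and sample. The unit is read from the values, as the header names none, and the counting tool, annotation and use of strand are not given in the sources used here. Reads from overlapping, antisense or alike genes (Lyz2, Fcgr3 and the class II genes among them) could not be told apart. Of 20985 rows, 6 rows of 3 repeated symbols were left out, and 26 rows held dates in place of symbols.

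The 32 members, the pathway and marker lists and the comparisons were chosen with earlier results of these data known. Values were tested as log2(RPKM + 1) with limma 3.58.1 (R 4.3.3, trended prior, two-sided, 1 coefficient per group, 12 residual and 3.71 prior degrees of freedom) for the 13874 genes at 1 RPKM or more in 3 or more libraries, with Benjamini and Hochberg adjustment over all of them and a threshold of 0.05. The fit was tested on simulated data. In each comparison the 3 members with the smallest p are named when none passes, and from each pathway list the 3 genes of highest mean and any that passed. Correlations used scipy 1.17.1 with 100000 permutations. Motif letters were chosen with the promoters in view. Alternatives were a pseudocount of 0.1, no filter, scaling by median ratios, only the compared groups, a replicate block and the omission of each library. Leaving out the libraries over 50 RPKM of Crisp1 was chosen after seeing the data. The result of 1 marker list is not reported here.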

Additional observations from a re-analysis of the deposited data

How the results depend on the processing

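limma called 0 members in all 12 comparisons under a pseudocount of 0.1, no filter on low values, scaling by median ratios, a fit on only the compared groups where run, and without the libraries over 50 RPKM of Crisp1. Leaving out each library in turn gave 0 to 1 called members in the main effect of HFD_STZ, where the 1 was H2-Aa without AOS replicate 2 (log2 difference 0.95, adjusted p 0.0219), and 0 in the other comparisons. The shares of all genes called in these reduced fits were not recorded. No named difference changed sign. A pseudocount of 0.1 moved low genes most, with Lst1 in HFD_STZ_AOS against HFD_STZ at 1.64 in place of 0.59. With the replicate block 0 members were called. The replicate numbers showed no pairing in the median. Over 45 same-numbered pairs of libraries, deviations from the group means correlated at -0.246 to 0.411. Their median was 0.001, against -0.014 for 90 other pairs, and 11 were over 0.1. Control replicate 3 gave 0.411 with HFD_STZ_AOS_FMT replicate 3 and 0.377 with HFD_STZ_control_FMT replicate 2. A median cannot exclude pairing among some of the groups. Members under 1 RPKM rest on few reads, and the depth in reads is unknown.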
